A study of Mus musculus with 19 samples.

Results

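The genes described here are 34 components of the coagulation and complement systems, chosen by name from a list of plasma proteins made by the liver. The rule uses no measured value, but the set was drawn up with earlier results of these data known. They fall into 19 coagulation genes, which include fibrinolysis and the kallikrein-kinin system, and 15 complement genes. All 34 were present in the table of 13549 genes for embryonic liver. In the tumour files of 17606 genes 33 of the 34 were found, Klkb1 being the one not analysed there. RNA was sequenced in 19 libraries of a mouse study of fibrolamellar carcinoma, a liver cancer that carries a fusion of DNAJB1 with PRKACA, a gene for the catalytic part of the cAMP-activated kinase PKA.

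The first comparison used livers at embryonic day 18.5, from 5 embryos labelled control and 4 labelled DNAJ1B-PKA_Overexpression, called fusion livers here. In the fusion livers a DNAJB1-PKA cDNA with a GFP reporter sat in the Rosa26 locus behind a stop cassette, and Cre driven by the albumin promoter removed that cassette from mid-gestation. Expression was thus aimed at albumin-producing cells, and the genotype of the controls was not further specified. The second comparison used tumours of FL8 cells, a single mouse line, which had been set in capsules of methacrylated gelatin and grown under the skin of NSG mice. All 10 tumours came from this line and from this host, which lacks T, B and natural killer cells. Treatment began at a mean tumour size of 75 mm3, and 5 mice received the oral methocel vehicle (labelled Control Carrier) and 5 received palbociclib, which blocks the cell cycle kinases CDK4/6, in doses of 75 mg/kg for 3 days, followed by 4 days without dosing. The ages of the mice were not given in the sources used here, nor whether each library came from a separate mouse. The p-values therefore measure only the spread between these libraries.

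Coagulation is a cascade of proteases, circulating as inactive precursors, that ends with thrombin cutting fibrinogen into fibrin. Plasmin dissolves the clot, and antithrombin, heparin cofactor II and the protein C pathway hold the cascade in check. Complement is a related cascade in plasma in which the lectin, classical and alternative routes converge on C3, after which C5 to C9 assemble into a pore. Hepatocytes make most of these proteins, and many of the genes are developmentally induced around birth or respond to inflammation through the C/EBP, HNF1, HNF4 and STAT3 transcription factors.

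In fusion livers 8 of the 34 genes had lower mRNA levels (edgeR's quasi-likelihood test, Benjamini-Hochberg adjusted p under 0.05 over 13316 genes) and none had higher levels. These were 4 coagulation genes, Kng1, Klkb1, Proc and Serpinf2, and 4 complement genes, C4b, Hc, C9 and Mbl2. Of all genes tested, 12.8% passed this test, with 6.81% lower and 5.99% higher. The fusion and control libraries did not overlap for 7 of the 34, all of them lower in fusion livers, beside 8.15% of all genes lower and 8.37% higher without overlap. An unadjusted p under 0.05 was reached by 14 of the 34 and by 29.3% of all genes. In direction alone, 31 of the 34 log2 fold changes were below 0, beside 6891 of all 13316 genes tested. The median was -0.41 for coagulation and -0.26 for complement genes, against -0.01 over all genes tested. Both classes therefore gave 4 calls, out of 19 and out of 15, and no difference between the classes was tested. In bulk RNA, fewer cells of a type and less RNA per cell cannot be told apart.

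**Figure D1:**
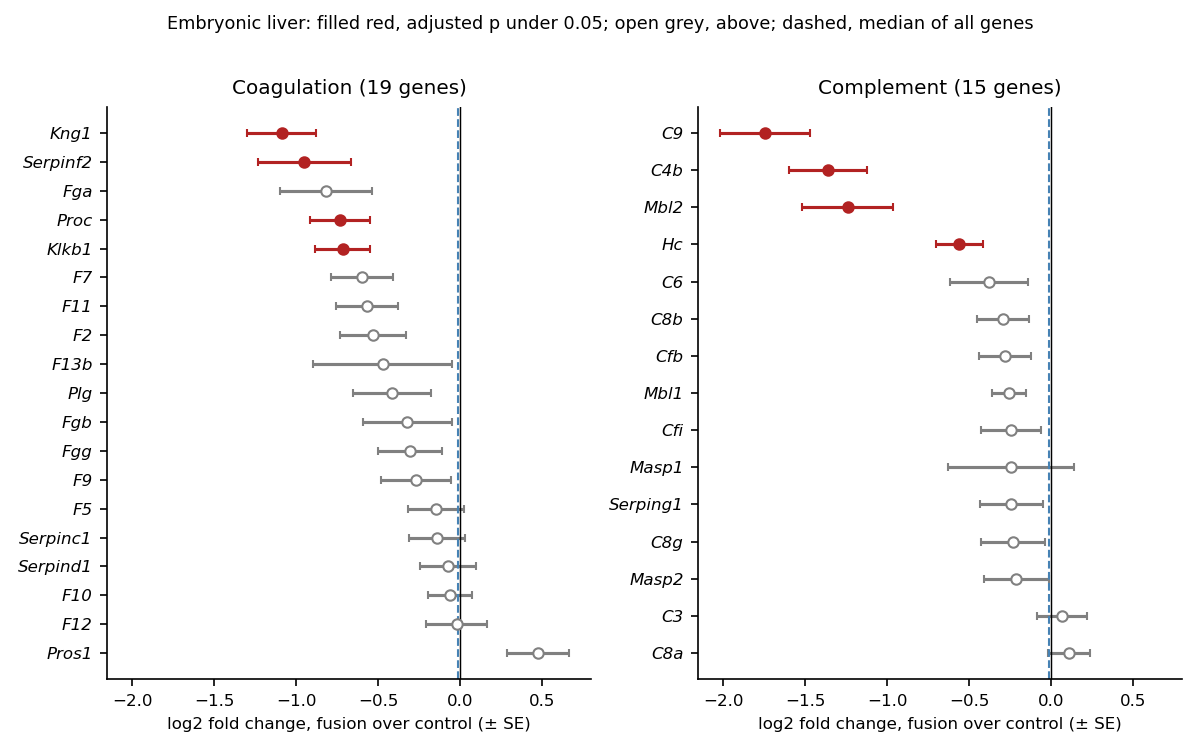
Log2 fold change of fusion over control livers for each of the 34 genes, with its standard error (SE), coagulation on the left and complement on the right, sorted by size. Filled red points passed an adjusted p of 0.05, open grey points did not, and the dashed line is the median of all genes; all 8 filled points lie below 0, from Hc at -0.56 to C9 at -1.75.

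Among the 26 genes of the set with an entry in the RefSeq promoter table (GRCm38.p6), C9 had the deepest fall. C4b, next in size, has no entry and is named only. The 250 bases upstream of the C9 start (15:6445096-6445345, plus strand), of the Mbl2 start (19:30232678-30232927, plus strand) and of the C3 start (17:57228137-57228386, minus strand) are shown to set a pair of genes that fell beside an abundant one with no call. Mbl2 and C3 were picked for this after their values were seen. Capitals mark matches to the C/EBP motifs TTGCNNAA and TTNNGNAA on either strand.
C9: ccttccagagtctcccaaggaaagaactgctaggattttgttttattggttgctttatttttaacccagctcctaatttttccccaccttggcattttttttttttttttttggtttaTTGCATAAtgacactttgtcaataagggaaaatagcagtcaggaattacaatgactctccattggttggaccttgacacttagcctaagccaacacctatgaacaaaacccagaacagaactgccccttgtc
Mbl2: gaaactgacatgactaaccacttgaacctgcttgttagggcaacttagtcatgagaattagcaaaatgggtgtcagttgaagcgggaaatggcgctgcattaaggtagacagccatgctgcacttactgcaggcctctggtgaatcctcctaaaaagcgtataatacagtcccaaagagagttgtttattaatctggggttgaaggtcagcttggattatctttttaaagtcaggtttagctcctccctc
C3: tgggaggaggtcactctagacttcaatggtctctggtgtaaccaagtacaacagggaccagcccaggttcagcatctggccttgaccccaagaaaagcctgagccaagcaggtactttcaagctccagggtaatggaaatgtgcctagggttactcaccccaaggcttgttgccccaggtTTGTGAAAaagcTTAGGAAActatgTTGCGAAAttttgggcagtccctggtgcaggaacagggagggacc
The C9 window held 1 such match, TTGCATAA, starting 132 bases before the start site, and it fitted both forms of the motif. The C3 window held 3 matches, at 70, 58 and 45 bases before the start, and that of Mbl2 held none. Over the 26 windows 7 held TTGCNNAA (26.9%) against 9.56% of 32851 promoters of the same length, and 12 held TTNNGNAA (46.2%) against 36.8%. The STAT motif TTCNNNGAA stood in 6 windows (23.1%) against 7.02% of all promoters, and the HNF1 half-site GTTAAT in 6 (23.1%) against 6.43%. The cAMP response element TGACGTCA, to which the PKA target CREB binds, was in 0 of the 26 windows and in 1.55% of all promoters. Its half-site TGACG was in 3 windows (F2, F9 and Masp2) against 17.8%. The HNF4 motif CAAAGTCCA was in 0 of the 26 and in 0.384% of all. Of the 5 called genes with a window, Klkb1 and C9 held TTGCNNAA, Hc held GTTAAT, and Mbl2 and Serpinf2 held no match to any of the 7 motifs. These are matches of letters within a window and no binding was measured.

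The contact and kallikrein-kinin group held the clearest fall among coagulation genes. Kng1 encodes kininogen, the carrier of bradykinin and a cofactor of contact activation, and was the second most abundant of the 34 in control livers per kilobase of exon. Its levels in the 5 control livers were 4596, 4408, 5187, 4231 and 4304 counts per 1000000 (CPM) after TMM scaling, and in fusion livers 6, 7, 8 and 9 they were 1893, 1599, 1905 and 3148 CPM. The groups did not overlap, and fusion 9 was the highest of the fusion livers. Kng1 was 2.13-fold lower, with a log2 fold change of -1.09 ± 0.21 (SE) and an adjusted p of 0.00726 in edgeR's test. Klkb1, which encodes plasma prekallikrein, the protease that cuts kininogen, stood at 116, 131, 119, 104 and 97.6 CPM in controls and at 52.9, 57.3, 79.8 and 86.7 CPM in fusion livers. Every fusion liver lay below every control, with a log2 fold change of -0.72 ± 0.17 (SE, adjusted p = 0.0182, edgeR). Without fusion 7 the adjusted p for Klkb1 was 0.0610 at a log2 fold change of -0.63. F11, the zymogen of the protease that activates factor IX, was at 80.2, 90.8, 134, 138 and 137 CPM in controls and at 90.7, 71.9, 64.4 and 85.3 CPM in fusion livers. The groups overlapped through controls 1 and 2, and F11 did not pass, at -0.57 ± 0.19 (SE, adjusted p = 0.0705, edgeR). F12, which starts contact activation, had a log2 fold change of -0.02 ± 0.19 (SE), with 242 to 417 CPM in controls and 278 to 435 CPM in fusion livers.

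Kng1 lies on chromosome 16 (GRCm38, 16:23057865-23082078) at the end of a row of related cystatin-family genes, and several of its neighbours also had lower levels. Hrg, histidine-rich glycoprotein, had a log2 fold change of -2.20 ± 0.33 (SE), with means of 192 ± 51.7 CPM in controls (SD, n = 5) and 41.8 ± 23.4 CPM in fusion livers (SD, n = 4), and an adjusted p of 0.00211 in edgeR's test. Fetub followed at -1.26 ± 0.24 (SE, adjusted p = 0.00759, edgeR) and Kng2 at -0.74 ± 0.18 (SE, adjusted p = 0.0194, edgeR). Ahsg, at the other end of the row, had -0.20 ± 0.27 (SE, adjusted p = 0.673, edgeR). Kng1 and Kng2 are similar in sequence, and how reads shared between them were counted is not given in the sources used here, so their separate values are uncertain. F11 and Klkb1 are likewise neighbours (8:45241174-45262031 and 8:45266689-45294859).

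The 3 fibrinogen chains, which lie together on chromosome 3 (Fgg 3:83007724-83015049, Fga 3:83026076-83033627, Fgb 3:83040141-83049863), were among the 4 most abundant of the 34 per kilobase in control livers, and none passed the test. Fga, the alpha chain, was at 2839, 2750.5, 4652, 4595 and 5452 CPM in controls and at 3201, 2317, 1358 and 2314 CPM in fusion livers. Only fusion 6 reached the range of the controls. The log2 fold change of Fga was -0.82 ± 0.28 (SE, adjusted p = 0.0782, edgeR), beside -0.32 ± 0.27 (adjusted p = 0.466) for Fgb, the beta chain, and -0.30 ± 0.19 (adjusted p = 0.328) for Fgg, the gamma chain. F13b, the carrier subunit of the clot-stabilising factor XIII, spread from 25.0 to 81.8 CPM within the controls alone, and its log2 fold change was -0.47 ± 0.42 (SE, adjusted p = 0.494, edgeR).

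The 4 vitamin K-dependent procoagulants had values below 0 and no call. F2, prothrombin, was at 1195, 1013, 1677, 1663 and 1624 CPM in controls and at 1204, 1048, 743 and 971 CPM in fusion livers. Fusion 6 and 7 stood between controls 1 and 2 or just above them, and the log2 fold change was -0.53 ± 0.20 (SE, adjusted p = 0.107, edgeR). F7, which starts clotting together with tissue factor, was at 24.6, 16.0, 27.1, 26.5 and 20.9 CPM in controls and at 19.7, 15.9, 11.5 and 13.6 CPM in fusion livers. Only fusion 6 exceeded the lowest control, and F7 narrowly missed the threshold at -0.60 ± 0.19 (SE, adjusted p = 0.0574, edgeR). F10, its neighbour on chromosome 8 (13037308-13056676, against 13026034-13035809 for F7) and its substrate, had -0.06 ± 0.13 (SE, adjusted p = 0.792, edgeR). F9, the factor lacking in haemophilia B, had -0.27 ± 0.21 (adjusted p = 0.433), and F5, the cofactor of factor Xa, had -0.15 ± 0.17 (adjusted p = 0.603).

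Among anticoagulants and fibrinolytic genes, Proc and Serpinf2 passed in the same direction. Proc encodes protein C, which when activated destroys factors Va and VIIIa. It was at 291, 281, 436, 394 and 387 CPM in controls and at 259, 197, 165 and 239 CPM in fusion livers. There was no overlap, although controls 1 and 2 lay close to fusion 6, and the log2 fold change was -0.73 ± 0.18 (SE, adjusted p = 0.0244, edgeR). Proc did not pass without control 3, control 5, fusion 7 or fusion 8, with adjusted p between 0.0571 and 0.0742 in edgeR's test. Pros1, protein S, the cofactor of protein C, had the highest log2 fold change of the 34 at 0.47 ± 0.19 (SE, adjusted p = 0.126, edgeR), with 12.4 to 25.9 CPM in controls and 24.6 to 31.7 CPM in fusion livers. Antithrombin (Serpinc1) had -0.14 ± 0.17 (adjusted p = 0.623) and heparin cofactor II (Serpind1) -0.08 ± 0.17 (adjusted p = 0.804).

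Serpinf2 encodes alpha-2-antiplasmin, the main inhibitor of plasmin. Its levels were 3093, 3994, 2436, 1788 and 1858 CPM in controls and 938, 1107, 1506 and 1899 CPM in fusion livers. Fusion 9 lay above controls 4 and 5, so the groups overlapped. The log2 fold change was -0.95 ± 0.29 (SE), with an adjusted p of 0.0497 in edgeR's test, and the call was lost in 9 of 17 alternatives, where adjusted p ran up to 0.130 without fusion 7. Plg, plasminogen, the precursor of plasmin, had -0.41 ± 0.24 (SE, adjusted p = 0.272, edgeR), with 2596 to 4255 CPM in controls and 1645 to 3153 CPM in fusion livers.

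**Figure D2:**
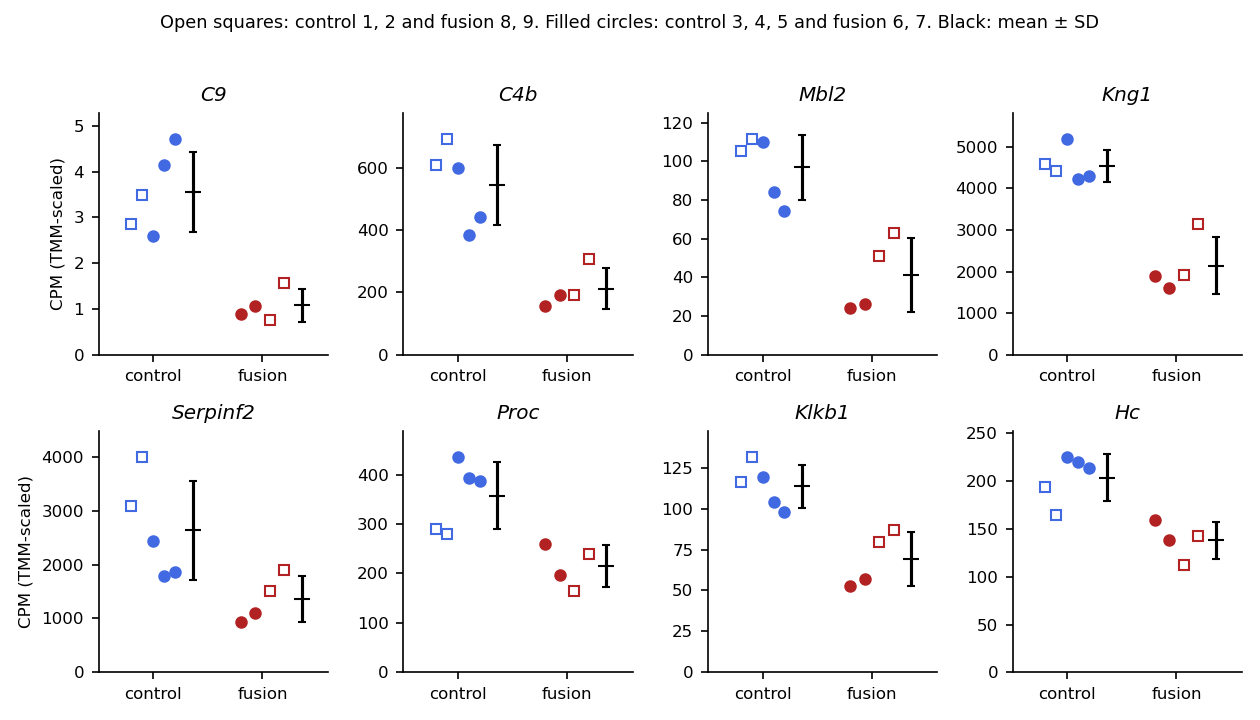
CPM after TMM scaling in each embryonic liver for the 8 genes past the threshold, control in blue and fusion in red, with the mean ± SD in black; each axis starts at 0 and has its own scale. Fusion livers lie below every control for all but Serpinf2, where fusion 9 at 1899 CPM is above controls 4 and 5.

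In the lectin route of complement, Mbl2 and not the other 3 members passed the test. Mbl2 encodes mannose-binding lectin C, which binds sugars on microbes and activates the MASP proteases. It was at 106, 112, 109.9, 83.96 and 74.4 CPM in controls and at 24.4, 26.3, 50.9 and 63.1 CPM in fusion livers. No fusion liver reached the lowest control, and fusion 6 and 7 were lower than fusion 8 and 9. The log2 fold change was -1.24 ± 0.28 (SE, adjusted p = 0.0149, edgeR), a 2.37-fold lower level. Its paralog Mbl1 had -0.26 ± 0.11 (SE, adjusted p = 0.130, edgeR), with 65.2 to 78.3 CPM in controls and 55.2 to 65.8 CPM in fusion livers. Masp1 had -0.25 ± 0.38 and Masp2, the protease that cuts C4 and C2, had -0.21 ± 0.20.

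C4b and C3, the thioester proteins that attach to targets, differed from each other. C4b (17:34728380-34743882, minus strand) was at 608, 691, 597, 384 and 439.9 CPM in controls and at 155, 191, 193 and 308 CPM in fusion livers. The groups did not overlap, fusion 9 again being nearest the controls, and C4b was 2.57-fold lower with a log2 fold change of -1.36 ± 0.24 (SE, adjusted p = 0.00428, edgeR). Its near-identical paralog C4a, the sex-limited protein gene, was at 3.82 to 14.8 CPM in controls and 4.11 to 11.2 CPM in fusion livers (log2 fold change -0.03 ± 0.43, SE, adjusted p = 0.970, edgeR). Reads shared between the 2 cannot be assigned with certainty, so the separate values are uncertain. C3, the hub of all routes, was at 4616, 4288, 5538, 4731 and 4372 CPM in controls and at 5608, 4533, 4619 and 4931 CPM in fusion livers. The groups interleaved fully, with a log2 fold change of 0.06 ± 0.15 (SE, adjusted p = 0.819, edgeR). Factor B (Cfb), the protease of the alternative route, had -0.28 ± 0.16 (adjusted p = 0.263), and factor I (Cfi), which inactivates C3b and C4b, had -0.25 ± 0.18 (adjusted p = 0.399). Serping1, the C1 inhibitor that also blocks kallikrein and factor XIIa, had -0.24 ± 0.19 (adjusted p = 0.437).

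Of the 6 terminal genes, C9 and Hc passed, and the C8 genes and C6 did not. C9 encodes the subunit that polymerises into the pore. Its level was low, 2.85, 3.49, 2.59, 4.15 and 4.71 CPM in controls and 0.897, 1.07, 0.766 and 1.57 CPM in fusion livers, from 10 to 108 reads per library. All fusion livers lay below all controls, with a log2 fold change of -1.75 ± 0.27 (SE, adjusted p = 0.00255, edgeR), or 3.35-fold lower. Hc, the mouse gene of complement C5, was at 194, 165, 225, 219 and 214 CPM in controls and at 159, 138, 112 and 142 CPM in fusion livers. Fusion 6 came within a few CPM of control 2, and the log2 fold change was -0.56 ± 0.14 (SE, adjusted p = 0.0260, edgeR). This call was lost when control 3, 4 or 5 or fusion 7 or 8 was left out, with adjusted p of 0.0526 to 0.0758 in edgeR's test. C8a, C8b and C8g encode the 3 chains of C8 and had 0.11 ± 0.13, -0.29 ± 0.16 and -0.23 ± 0.19, and C6 had -0.38 ± 0.24.

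The embryo libraries also fell into 2 sets that cut across genotype. Controls 1 and 2 and fusion 8 and 9 gave 7.76% to 8.41% of their counts to ribosomal protein genes, and the other 5 libraries gave 5.38% to 6.72%. The labels name no batch for this division. Several of the genes differed between the sets within the controls alone: the mean of controls 3 to 5 was 2.69 times that of controls 1 and 2 for F13b, 1.90 times for Fgb and 1.75 times for Fga, but 0.572 times for Serpinf2 and 0.574 times for C6. Xist, read here as a mark of sex, was at 448 and 391 CPM in controls 1 and 2. In controls 3 to 5 it was at 0.242 to 0.448 CPM. Within the controls, the division and sex therefore cannot be told apart. Within controls 1 and 2 and fusion 8 and 9, 10 of the 34 were called, beside 20.0% of all genes. Within the other 5 libraries 13 were called, beside 21.8%. Fusion 6 and 7 had Xist at 263 and 246 CPM, so within these 5 libraries genotype and sex cannot be told apart. Kng1, Klkb1, Serpinf2, C4b, C9 and Mbl2 passed on both sides of the division. Proc (adjusted p = 0.0766, edgeR) and Hc (adjusted p = 0.0538, edgeR) missed it in the first set, at log2 fold changes of -0.49 and -0.49.

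With the division as a covariate 16 of the 34 were called, beside 32.7% of all genes. The 8 added to the first 8 were F2, F7, F11, Fga, Plg, C6 and Mbl1, lower, and Pros1, higher at 0.54 (adjusted p = 0.0152, edgeR). The fibrinogen chains had unlike values on the 2 sides of the division. Fgg had -0.67 within controls 3 to 5 and fusion 6 and 7 (adjusted p = 0.0112, edgeR) and 0.10 within the other 4 libraries (adjusted p = 0.754, edgeR), and the difference between these values was not tested. Xist stayed below 1 CPM in controls 3, 4 and 5 and in fusion 9, against 162 to 448 CPM in the remaining 5 libraries, so that the sexes were unequally spread over the groups. The Fgg value of -0.67 thus comes from the set in which genotype and sex cannot be told apart. With Xist as a covariate 7 of the 34 were called, beside 11.4% of all genes, Serpinf2 being lost. With DESeq2 in place of edgeR 12 of the 34 were called, all lower, beside 18.4% of all genes.

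Summed over genes, coagulation transcripts took 2.35%, 2.60%, 3.37%, 3.13% and 3.22% of all counts in controls 1 to 5 and 2.25%, 1.79%, 1.74% and 2.33% in fusion 6 to 9. The highest fusion liver thus lay just below the lowest control. Complement transcripts took 0.650% to 0.886% in controls and 0.618% to 0.827% in fusion livers, which overlapped; most of this sum is C3. The coagulation share is dominated by fibrinogen, Kng1, Plg and Serpinf2, and it also differs between the 2 sets of libraries.

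**Figure D3:**
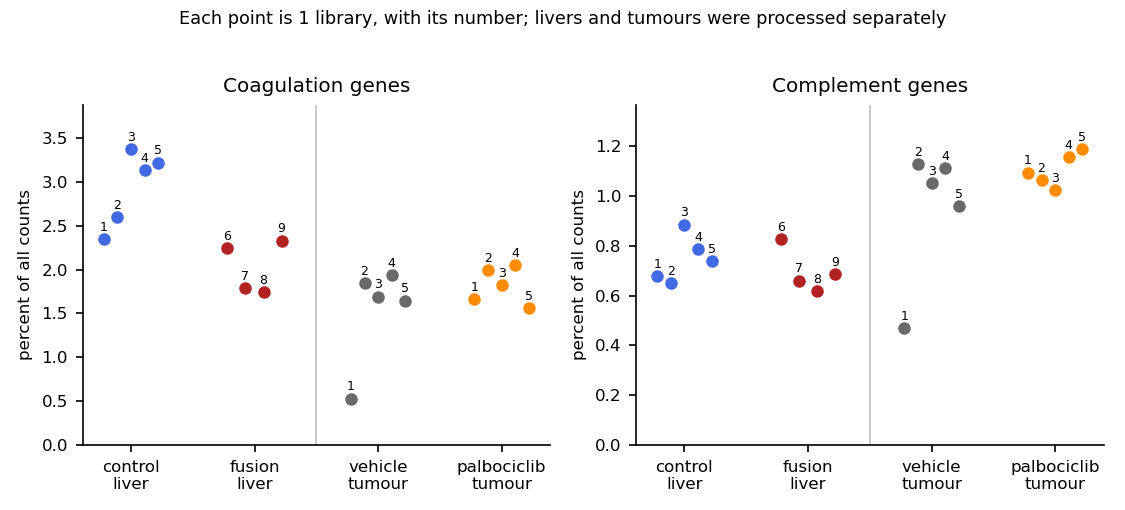
Share of all counts taken by the 19 coagulation genes (18 in tumours) and the 15 complement genes in each library, numbered, for control and fusion livers and for vehicle and palbociclib tumours. Coagulation shares are 2.35% to 3.37% in control and 1.74% to 2.33% in fusion livers, and vehicle 1 is lowest in both panels among all libraries.

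Markers of hepatocytes, which make most of these proteins, gave summed levels of 164311 to 215863 CPM in controls and 177878 to 231117 CPM in fusion livers over 8 of 8 listed genes. Within that list Afp, the fetal serum protein, was higher (log2 fold change 0.86 ± 0.20, SE, adjusted p = 0.0178, edgeR) and Apoa1 was lower (-0.89 ± 0.25, SE, adjusted p = 0.0382, edgeR). Macrophage and Kupffer cell markers (7 of 7 listed) summed to 633 to 680.1 CPM in controls and 527 to 596 CPM in fusion livers, without overlap, and their part in the results was not tested. Neutrophil markers (7 of 7) spanned 5599 to 7264 CPM in controls and 4558 to 6309 CPM in fusion livers, and megakaryocyte markers (7 of 7) 345 to 523 CPM and 261 to 423 CPM. None of the detected markers of these lists was at 0 in an embryo library. Prkaca counts, which hold reads of the fusion as well as of the native gene where they were counted together, were 36.3 to 50.5 CPM in controls and 52.0 to 114 CPM in fusion livers.

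A wider list of 62 other coagulation and complement genes had 59 tested, of which 12 were lower and 0 higher, beside 6.81% of all genes lower and 5.99% higher. By adjusted p, Hrg, described above, led this list, followed by Proz, protein Z, at -0.96 ± 0.15 (SE, adjusted p = 0.00254, edgeR), Serpina5, protein C inhibitor, at -3.68 ± 0.62 (SE, adjusted p = 0.00374, edgeR) and C1ra, a protease of the C1 complex, at -1.02 ± 0.17 (SE, adjusted p = 0.00397, edgeR). Serpina5 was at 5.27 to 11.01 CPM in controls and 0.146 to 2.19 CPM in fusion livers. Hgfac, the activator of hepatocyte growth factor, had -0.73 ± 0.16 (adjusted p = 0.0142), and Serpina10, the inhibitor that protein Z assists, had -0.62 ± 0.14 (adjusted p = 0.0144). Vkorc1, the vitamin K reductase on which the carboxylated factors depend, was at 342 ± 45.1 CPM in controls (SD, n = 5) and 200.3 ± 52.5 CPM in fusion livers (SD, n = 4), with an adjusted p of 0.0205 in edgeR's test, while Ggcx, the carboxylase, had -0.37 (adjusted p = 0.0930). Vkorc1 and Ggcx were named after their values were seen. The median log2 fold change of the wider list was -0.18, against -0.01 over all genes.

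Among 17 tested acute phase genes 6 were lower and 1 was higher, beside 6.81% and 5.99% of all genes, and the median log2 fold change was -0.61, against -0.01 over all genes. Ceruloplasmin (Cp) had -2.64 ± 0.40, Itih4 -1.08 ± 0.18, C-reactive protein (Crp) -1.26 ± 0.22, Saa4 -1.16 ± 0.21 and serum amyloid P (Apcs) -1.26 ± 0.26, all with adjusted p of 0.0108 or less in edgeR's test. Haemopexin (Hpx), which binds free haem, was the one that rose, with 750.04 ± 113 CPM in controls (SD, n = 5) and 1745 ± 383 CPM in fusion livers (SD, n = 4). Of 12 liver transcription factors 3 were lower and 0 higher, beside 6.81% and 5.99% of all genes: Cebpa, a C/EBP factor (200.4 ± 35.2 CPM in controls and 128 ± 24.2 CPM in fusion livers, SD, n = 5 and 4), Foxa2 (-0.80 ± 0.19) and Nr1h4, the bile acid receptor (-0.66 ± 0.15). The other 9 of that list did not pass.

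In the tumours none of the 32 genes tested passed limma's test of palbociclib against vehicle on log2(CPM + 1), and none of 12829 genes did (0%). C9, with a mean under 1 CPM, was left out of limma's test. At an unadjusted p under 0.05, 586 genes were found (4.57%), and 4 of the 32 were among them, C8b, Mbl2, F13b and Masp2. That count was 2 of 32 without vehicle 1 (5.09% of all genes) and 6 without vehicle 5 (7.17%). With any other library left out it was 1 to 5, and the share of all genes was not taken there. These counts are therefore not read as a result about the set. C8b was among the genes counted each time a library was left out. On the recovered reads edgeR called 0 genes and DESeq2 called 8 (0.0468%), none of the 34. DESeq2 gave C9 a log2 fold change of 2.60 (unadjusted p = 0.0423, adjusted p = 0.792), from 0 to 70 reads per library. No member separated the groups, while 0.935% of all genes did (0.834% higher). In direction all 32 were higher with palbociclib, beside 8824 of all 12829 genes tested. The medians were 0.33 for coagulation and 0.47 for complement genes, against 0.14 over all genes. TMM scaling brought the median of all genes to 0.01, and then 28 of 32 were higher, with medians of 0.18 and 0.33. Of the wider list 53 genes were tested in tumours and 0 passed, at an adjusted or an unadjusted p of 0.05 in limma, and of 20 acute phase genes 0 passed after adjustment and 4 before it.

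These directions rested largely on the library vehicle 1. It gave 46.6% of its reads to mitochondrial genes, against 1.24% to 6.47% in the other 9 tumours, and only 0.997% to the genes described here, against 2.60% to 3.21%. Of non-mitochondrial reads alone these genes took 1.87% in vehicle 1 and 2.68% to 3.29% in the others. Its macrophage markers (6 of 7 listed) summed to 351 CPM, against 6.77 to 60.6 CPM in the other tumours. Hepatocyte markers (8 of 8) summed to 39561 CPM in vehicle 1, of all reads, against 82858 to 126817 CPM in the other tumours. Without it 20 of the 32 were higher and the medians were 0.04 for coagulation and 0.13 for complement, beside 0.03 over all genes. Vehicle 5 was the shallowest library, with 2.96 M reads (M being 1000000), where the other tumours had 21.1 to 43.1 M. The part of these features of vehicle 1 in the results was not tested.

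**Figure D4:**
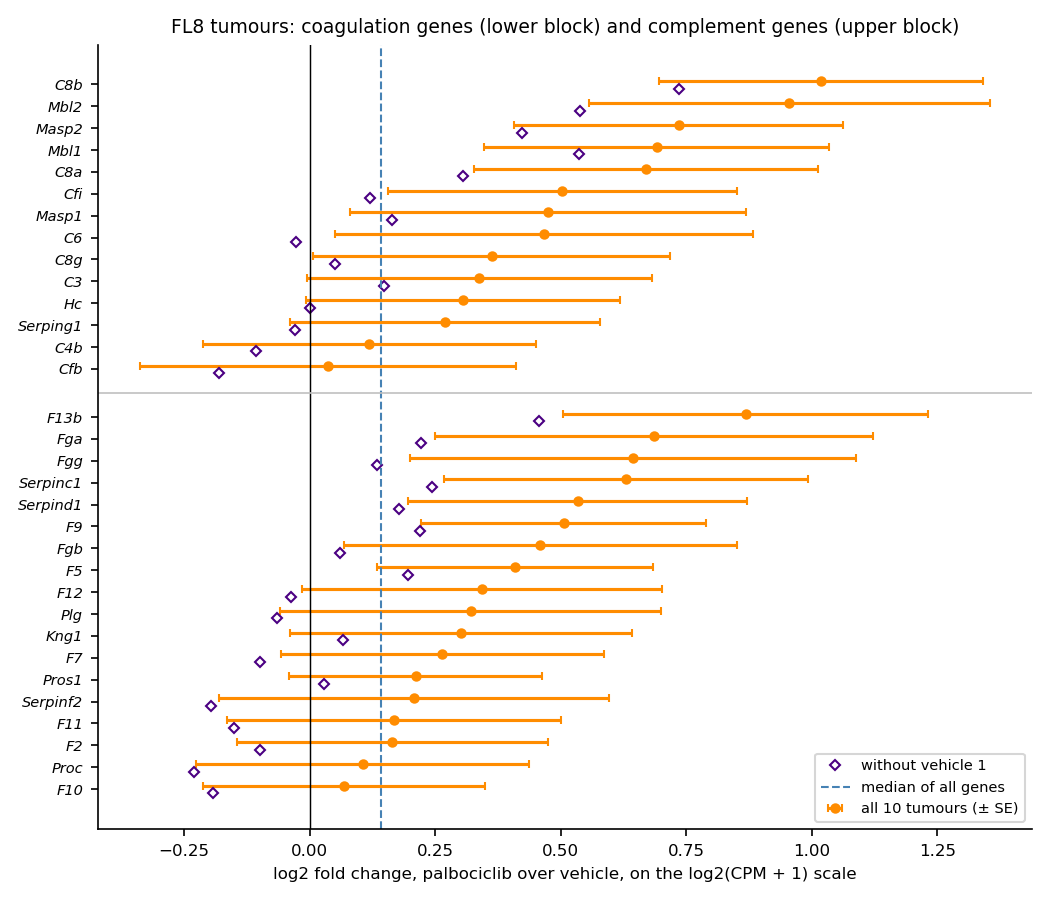
Log2 fold change of palbociclib over vehicle tumours on the log2(CPM + 1) scale for the 32 tested genes, with all 10 tumours (circles, ± SE) and without vehicle 1 (diamonds); the dashed line is the median of all genes with all tumours. The circles all lie above 0, and 12 of the diamonds lie below it.

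C8b had the smallest p of the set. It was at 5.64, 10.7, 17.1, 19.5 and 21.7 CPM in vehicle tumours 1 to 5 and at 28.3, 30.6, 29.1, 34.7 and 21.3 CPM in palbociclib tumours 1 to 5. Only palbociclib 5 fell within the vehicle range, just under vehicle 5. The difference was 1.02 ± 0.32 (SE) on the log2(CPM + 1) scale, with an unadjusted p of 0.00583 and an adjusted p of 0.953 in limma, and 0.74 without vehicle 1 (unadjusted p = 0.00877). C8a, which lies beside it on chromosome 4, was at 13.2, 71.0, 45.4, 40.0 and 46.4 CPM and at 71.2, 75.6, 58.1, 52.0 and 53.5 CPM, with 0.67 ± 0.34 (SE, unadjusted p = 0.0672, limma) and 0.31 without vehicle 1. Vehicle 2 reached the level of palbociclib 1.

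Mbl2, F13b, Masp2, Mbl1 and C8a had the next smallest p. Mbl2 was at 42.6, 113, 164, 179.8 and 344 CPM in vehicle and at 201, 304, 306, 271 and 274 CPM in palbociclib tumours. Vehicle 5 was above all palbociclib tumours and the other 4 vehicle tumours below them, with a difference of 0.96 ± 0.40 (SE, unadjusted p = 0.0284, limma) that was 0.54 without vehicle 1 (unadjusted p = 0.0593). Mbl1 was at 7.74, 11.2, 13.8, 7.996 and 29.8 CPM and at 25.3, 24.4, 26.7, 13.7 and 16.6 CPM, with vehicle 5 again highest (0.69 ± 0.34, SE, unadjusted p = 0.0605, limma). Masp2 was at 10.4, 38.4, 37.6, 40.2 and 19.6 CPM and at 44.6, 48.7, 36.9, 51.3 and 41.0 CPM, where palbociclib 3 alone lay within the vehicle range (0.73 ± 0.33, SE, unadjusted p = 0.0388, limma; 0.42 and 0.0877 without vehicle 1). F13b was at 33.0, 151, 147, 109 and 163 CPM and at 213, 206, 244, 186 and 138 CPM, with palbociclib 5 in the vehicle range (0.87 ± 0.36, SE, unadjusted p = 0.0290, limma; 0.46 and 0.0357 without vehicle 1). All of these had an adjusted p of 0.953. Masp1, the remaining lectin gene, had 0.47 ± 0.39 (SE, unadjusted p = 0.245, limma).

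The most abundant of the genes in tumours, per kilobase, were C3, C4b and Serping1 of complement and Kng1, Serpinf2 and Fgg of coagulation. C3 was at 2529, 4929.7, 4973, 5667 and 4110.3 CPM in vehicle and at 5270.1, 5256, 4909, 5919.9 and 5797 CPM in palbociclib tumours. C4b was at 1235, 3536, 2898, 2349.8 and 2182 CPM and at 2628, 2285, 2104, 2393 and 3243 CPM. Serping1 was at 311, 866, 844, 940.0 and 872 CPM and at 905, 766, 953, 857 and 841 CPM. In each of these 3, vehicle 1 was the lowest tumour and the other 4 vehicle tumours overlapped the treated ones. Kng1 was at 1369.7, 3006, 2838, 3568 and 3016 CPM and at 2481, 3841, 3906, 3609.6 and 2667 CPM. Fgg was at 285, 1348, 1514, 2299 and 1671 CPM and at 1759.9, 1990.2, 1984, 2062 and 1454 CPM. Serpinf2 was at 462, 2586, 1881, 1497 and 1708 CPM and at 1521, 1825, 1479, 1872 and 1536 CPM. The differences for these 6 ran from 0.12 ± 0.33 (C4b) to 0.64 ± 0.44 (Fgg) with SE, and without vehicle 1 from -0.20 (Serpinf2) to 0.15 (C3). C9 had 6, 0, 8, 6 and 0 reads in vehicle and 0, 62, 39, 70 and 28 reads in palbociclib tumours.

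Levels in control livers and vehicle tumours were set side by side per kilobase of exon. The experiments were normalised separately, and the lengths are those of all exons joined. Such lengths are too long for genes with rare long transcripts, such as Serpinc1, Masp1 and Klkb1, and understate their level per kilobase. For these reasons no test was made. In control livers the order began with Fgg (mean 2652 CPM per kb), Kng1 (1399), Fga (1348), Fgb (1316), Serpinf2 (1133), C3 (916) and Plg (872). Fga and Fgb differed by less than the spread of the 5 controls, and so did Kng1 and Fga. In vehicle tumours it began with C3 (864 CPM per kb), Kng1 (849), Serpinf2 (699.9), Fgg (680.03), Plg (488), Fga (455), Fgb (439.9) and C4b (428), with differences between neighbours in this order smaller than the SDs of the 5 tumours.

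The largest shift in place was that of Cfb. Factor B was ninth of the 34 in control livers, at 546 to 812 CPM, and 32nd of 33 in vehicle tumours, at 0.768 to 4.06 CPM from 12 to 71 reads. Its low level was shared by the palbociclib tumours (0.987 to 3.73 CPM). C8b was likewise lower in tumours, from 220.3 to 310.04 CPM in control livers to 5.64 to 21.7 CPM in vehicle tumours, although C8g, the chain encoded on chromosome 2, was not (91.4 to 153 and 89.2 to 546 CPM). C4b was higher in tumours, from 384 to 691 CPM in control livers to 1235 to 3536 CPM in vehicle tumours, as were F5 (51.1 to 75.3 and 268 to 657 CPM) and Serping1 (168 to 294 and 311 to 940.0 CPM). C2, the neighbour of Cfb and its counterpart in the classical route, was at 51.4 to 57.8 CPM in control livers and 11.9 to 49.7 CPM in vehicle tumours. Livers and tumours were aligned and counted with different tools, and how reads shared between genes were treated is not given in the sources used here. For Cfb and the other genes of this paragraph, a difference in counting therefore cannot be told apart from a difference in level.

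**Figure D5:**
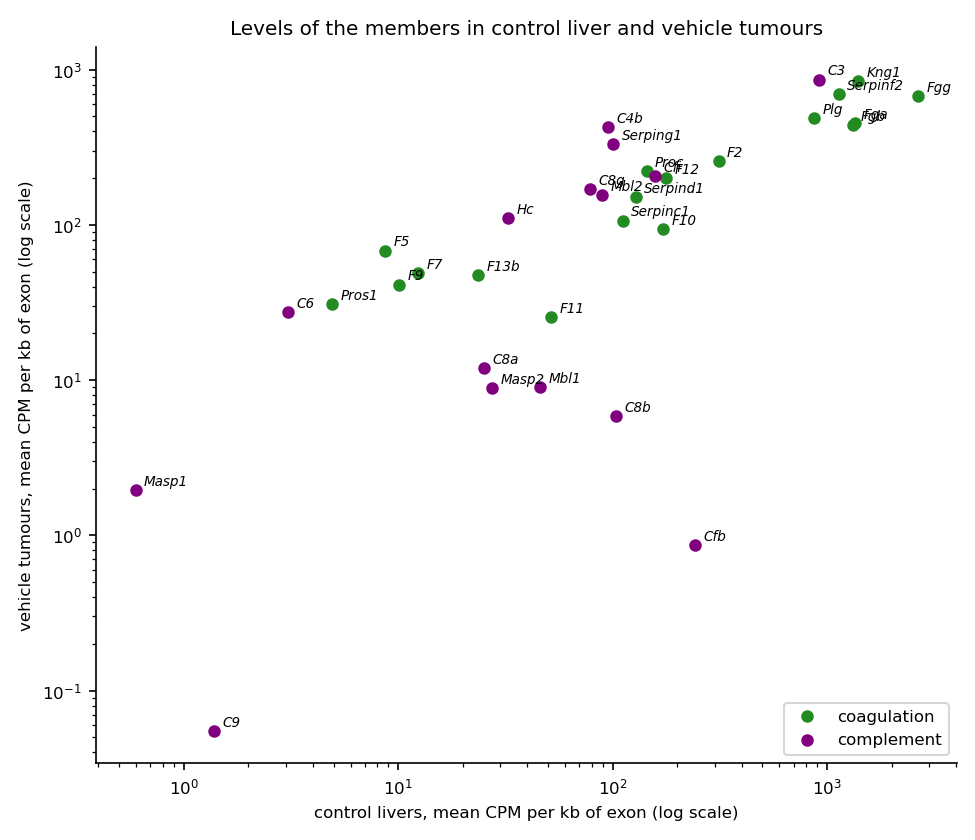
Mean level per kilobase of exon of 33 genes in the 5 control livers (horizontal) and the 5 vehicle tumours (vertical), both axes logarithmic, coagulation in green and complement in purple. Most genes lie along one band; Cfb, at 243 and 0.870 CPM per kb, and C9, at 1.39 and 0.0550 CPM per kb, lie lowest.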

How the data were processed

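For the livers the authors deposited raw read counts by gene symbol, made with STAR 2.5.1b on poly-A RNA, and the tumour files hold CPM deposited by the authors per Ensembl ID, made with cutadapt 2.10, HISAT2 and featureCounts, per the submitters' processing notes, which also name DESeq2, R 4.1.2 and mm10. Annotation, strand setting and treatment of shared reads are not given in the sources used here. In all, 9 scaled columns of the embryo table were not used. Tumour CPM gave whole reads for 100% of values (tolerance 0.01).

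Embryo counts were tested with edgeR 4.0.16 (R 4.3.3, quasi-likelihood test, TMM, filterByExpr). Because the tumours held CPM, limma 3.58.1 with a trend was used on log2(CPM + 1) where a gene averaged 1 CPM or more; such fold changes understate low genes. Each SE in the embryos is the fold change divided by the root of edgeR's F statistic. Adjusted p-values are Benjamini-Hochberg over all genes tested, at a threshold of 0.05. The 34 genes and all lists were chosen with earlier results of these data known. Every one of the 34 is accounted for. Values per library are given for calls, for embryo genes whose log2 fold change reached 0.5 in size, and in tumours for the 6 smallest p and the 3 most abundant of each class, and in other lists at most the 6 smallest adjusted p are named. Coordinates and exon lengths are from GENCODE M21 (GRCm38) and promoters from RefSeq.

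Depth was 7.66 to 45.6 M counts in embryos and 2.96 to 43.1 M reads in tumours. A floor of 3 counts is 0.0658 to 0.392 CPM and 0.0695 to 1.01 CPM and covers counting error only. Replicate libraries all differed by more than sampling noise (lowest chi-square per degree of freedom 13.0). Tested on simulated data with 4-fold changes in 200 genes, the embryo fit recovered 198 of 200 with 9 false calls over 13268 genes. The tumour fit recovered 157 of 200 with 2 false calls over 12780 genes. The called genes of the set changed less than this in embryos, from Hc (1.48-fold lower) to C9 (3.35-fold lower). In tumours C8b, with the smallest p of the set, was 2.03-fold higher. These rates therefore do not tell how often changes of such sizes are found. Alternatives were other size factors and filters, DESeq2 1.42.0, the division of embryo libraries, Xist, pseudocount 0.1, scalings without mitochondrial genes or by TMM, a replicate block, and each library left out.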

Additional observations from a re-analysis of the deposited data

Results flagged for a closer look

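Of 134 groups of values screened, 7 held a library that stood far from the rest of its group. Chance gives about 7 for independent groups, but these groups share libraries, so that figure is only a rough guide. In embryos Fgg was at 4263 CPM in control 1, where the other controls had 5613 to 6085 CPM, and Serping1 was at 241 CPM in fusion 6, where the others had 182 to 185 CPM. In vehicle 1, the tumour with 46.6% mitochondrial reads, Serpinc1 was at 278 CPM against 960.2 to 1165 CPM in the other vehicle tumours, and Serping1 at 311 CPM against 844 to 940.0 CPM. Mbl1 was at 29.8 CPM in vehicle 5, the shallowest library, against 7.74 to 13.8 CPM. Among palbociclib tumours F11 was at 86.1 CPM in palbociclib 1 against 46.8 to 57.0 CPM, and Serpind1 at 322 CPM in palbociclib 5 against 445 to 473 CPM.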

How the results depend on the processing

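In embryos the calls of Kng1, C4b and Mbl2 held in all 17 alternatives and that of C9 in the 16 that tested it. The count of called genes was 16 with the library division as covariate, 13 within controls 3 to 5 and fusion 6 and 7, and 4 to 8 with a library left out (5 without control 3, 4 without fusion 7, 5 without fusion 8). Over all genes 12.8% were called, 32.7% with the covariate, 21.8% within those 5 libraries and 18.4% with DESeq2, which called 12 of the 34. With a library left out 969 to 1581 genes were called, against 1704 with all 9. Coagulation calls were 8 with DESeq2, 10 with the covariate, 9 within those 5 libraries and 1 to 4 with a library left out. The wider list gave 27, 20 and 6 to 11 calls under the covariate, within those 5 libraries and with a library left out, beside those shares of all genes.

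Some small values changed sign. Within controls 1 and 2 and fusion 8 and 9, log2 fold changes were 0.024 for F10, 0.012 for F12, 0.077 for Fgb, 0.097 for Fgg, 0.15 for Serpinc1 and 0.094 for Serping1, and within the other 5 libraries 0.033 for F12 and 0.24 for Masp1. F12 had 0.020 with the covariate and 0.051 with Xist, and Serpind1 had 0.0032 with Xist. With a library left out, F10 ranged from -0.12 to 0.0049, F12 from -0.15 to 0.067, Masp1 from -0.83 to 0.0077 and Serpind1 from -0.18 to 0.013.

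In tumours no alternative called any of the 34. With TMM scaling, without mitochondrial genes, with edgeR and with DESeq2 in turn, C4b had -0.030, -0.028, -0.041 and -0.054, Cfb -0.039, -0.035, -0.042 and -0.029, F10 -0.079, -0.078, -0.12 and -0.13, and Proc -0.043, -0.041, -0.086 and -0.098. With edgeR and DESeq2 F11 had -0.024 and -0.036 and Serpinf2 -0.022 and -0.033, and C8g had -0.015 with DESeq2. With a tumour left out, the lowest value being that without vehicle 1 for each of these 12 genes, C4b ranged from -0.11 to 0.27, C6 from -0.028 to 0.68, Cfb from -0.18 to 0.22, F10 from -0.19 to 0.19, F11 from -0.15 to 0.37, F12 from -0.038 to 0.54, F2 from -0.099 to 0.28, F7 from -0.099 to 0.40, Plg from -0.065 to 0.49, Proc from -0.23 to 0.25, Serpinf2 from -0.20 to 0.42 and Serping1 from -0.029 to 0.37. The causes were not tested.

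Same-numbered vehicle and palbociclib tumours did not deviate together (Pearson r across genes from -0.3172 to 0.002233). These values cannot tell whether such tumours share more than a number. With the number as a replicate block 0 genes were called, and no tumour correlated best with its own number.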
